A study of Mus musculus with 29 samples.

Results

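The genes described here are 8 regulators of the pluripotent state of mouse embryonic stem cells (mESCs), Pou5f1, Nanog, Klf4, Esrrb, Tbx3, Sall4, Zfp42 and Prdm14, out of 22380 protein-coding genes in the mouse annotation. They were chosen by name, and a ChIP-seq peak was assigned to a gene when its summit, the base with the most fragments, lay in the gene body or within 20 kb of it. Of 175162 summits that the authors kept over 9 peak lists, 87 lay in these windows, and they fell at 40 separate sites. The data came from embryoid bodies (EBs), aggregates in which mESCs differentiate, made without the self-renewal cytokine LIF from 6 doxycycline-inducible lines and harvested at day 6 after 48 h with 2 µg/ml doxycycline. The lines carried Atoh1 alone (iAtoh1), Pou4f3 alone (iPou4f3), Gfi1 with Atoh1 (iG+A), Gfi1 with Pou4f3 (iG+P), Pou4f3 with Atoh1 (iP+A) or all of Gfi1, Pou4f3 and Atoh1 (iGPA). All lines derived from the A2Lox parent, with the factors in a single cassette joined by self-cleaving 2A peptides and ending in a Venus reporter. Every group compared was therefore induced, and the lists hold no peaks from cells kept without doxycycline. Atoh1 carried a FLAG tag and Pou4f3 a MYC tag, so the tagged transgene products were precipitated, whereas Gfi1 was precipitated in iGPA with an antibody to the protein. There were 4 Atoh1 lists, 4 Pou4f3 lists and 1 Gfi1 list, each called on merged libraries against merged inputs, with 2 ChIP libraries, titled as replicates, behind each Atoh1 and Pou4f3 list and 1 library behind the Gfi1 list.

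In mESCs, Pou5f1 (Oct4) and Nanog are core factors of the self-renewal network, Klf4, Esrrb and Tbx3 are factors that sustain it downstream of LIF and Wnt signals, and Sall4 is a zinc finger protein that maintains expression of Pou5f1. Zfp42 (Rex1) is a marker of the naive state, and Prdm14 protects that state by repressing FGF signalling and DNA methyltransferase genes. The network is switched off as EBs differentiate. Atoh1 is a proneural bHLH factor that binds E-boxes, Pou4f3 is a POU homeodomain factor of inner ear hair cells, and Gfi1 is a zinc finger factor best known as a repressor. Peak lists hold no expression values, so neither the identity of the cells nor the transcription of the 8 genes was measured here.

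The sequences of the sites that carry the results are given first, for the site of each gene that was found in the most lists. They are forward-strand sequences of mm9 read from the NCBIM37 assembly, 250 bases around the strongest summit, and sites are named by their distance from the annotated start of the gene in the direction of transcription. Capitals mark an E-box of the kind Atoh1 binds (CAGATG or CAGCTG on either strand) or a word within 1 mismatch of ATAATTAAT on either strand, a POU homeodomain pattern. The Sall4 site lay in an untranslated first exon, so only 30 bases around each match are shown, first the POU pattern at chr2:168592629-168592658 and then the E-box at chr2:168592676-168592705.
Sall4 +0.8 kb POU pattern: gcgcatgtcccAGTAATTATtattatcaat
Sall4 +0.8 kb E-box: catgagctctgaCAGCTGattggcctgggt
The Esrrb site at chr12:87724847-87725096, in an intron, is shown because Atoh1 was found there only in lines that also carried Pou4f3.
Esrrb +22.9 kb: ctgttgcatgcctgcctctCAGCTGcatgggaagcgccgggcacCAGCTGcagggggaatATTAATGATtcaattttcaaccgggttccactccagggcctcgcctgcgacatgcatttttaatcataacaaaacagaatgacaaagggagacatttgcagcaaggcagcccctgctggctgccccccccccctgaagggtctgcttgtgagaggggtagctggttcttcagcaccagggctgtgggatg
The Klf4 site at chr4:55545456-55545705, just upstream of the gene, is shown as the only site of the 40 with a peak in all 4 Atoh1 lists.
Klf4 -0.2 kb: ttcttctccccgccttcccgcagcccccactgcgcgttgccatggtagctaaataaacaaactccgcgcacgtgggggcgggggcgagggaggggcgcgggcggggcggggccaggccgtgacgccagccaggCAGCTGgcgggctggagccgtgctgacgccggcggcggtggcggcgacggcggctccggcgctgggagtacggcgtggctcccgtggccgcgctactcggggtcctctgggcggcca
The Nanog site at chr6:122667207-122667456, downstream of the gene, had a peak in all 4 Pou4f3 lists.
Nanog +9.8 kb: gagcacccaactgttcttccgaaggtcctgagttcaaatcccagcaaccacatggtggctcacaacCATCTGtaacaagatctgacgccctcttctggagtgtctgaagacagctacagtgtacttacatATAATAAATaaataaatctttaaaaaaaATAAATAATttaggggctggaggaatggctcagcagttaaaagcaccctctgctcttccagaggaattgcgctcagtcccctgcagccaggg
The Pou5f1 site at chr17:35653791-35654040 and the Tbx3 site at chr5:120115811-120116060 are shown for contrast, the former with an E-box at Atoh1 summits and the latter with neither pattern under Pou4f3 summits.
Pou5f1 +10.9 kb: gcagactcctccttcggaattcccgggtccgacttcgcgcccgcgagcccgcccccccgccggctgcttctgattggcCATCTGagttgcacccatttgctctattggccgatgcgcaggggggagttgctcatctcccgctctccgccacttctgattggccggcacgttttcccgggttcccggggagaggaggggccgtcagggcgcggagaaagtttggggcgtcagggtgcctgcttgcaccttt
Tbx3 -4.7 kb: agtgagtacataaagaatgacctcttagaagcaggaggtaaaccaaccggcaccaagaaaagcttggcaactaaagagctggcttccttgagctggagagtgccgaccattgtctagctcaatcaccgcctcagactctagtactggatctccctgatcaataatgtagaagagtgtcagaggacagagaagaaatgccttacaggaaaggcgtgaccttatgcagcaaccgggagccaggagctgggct

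How many of the genes had a peak in each list was examined next. Nanog, Klf4, Esrrb, Tbx3 and Sall4 each had a summit in all 4 Pou4f3 lists, and Pou5f1, Zfp42 and Prdm14 had none in any of them. These 5 of 8 genes stand beside 29.5% of all protein-coding genes with a summit in all 4 Pou4f3 lists and 71.6% with one in at least 1. For Atoh1, Klf4, Esrrb and Tbx3 had a summit in all 4 lists (3 of 8, against 27.3% of all genes), and 6 of 8 genes had one in at least 1 list (69.8%). The membership of the Pou4f3 lists was thus the same 5 genes in each of the 4 lines, while the Atoh1 lists also held Sall4 in iG+A, iP+A and iGPA, Nanog in iG+A and iGPA, and Pou5f1 in iP+A and iGPA. When all 8 lists were limited to their strongest 15568 peaks, an Atoh1 summit lay at 3 genes in iAtoh1, 3 in iG+A, 5 in iGPA and 4 in iP+A. A Pou4f3 summit then lay at 5 in iPou4f3, 4 in iG+P, 5 in iGPA and 4 in iP+A. No share of all genes was obtained at that length, so these counts have no background beside them. In gene bodies alone, each Pou4f3 list had a summit at 3 genes, but not at the same 3. They were Esrrb, Sall4 and Tbx3 in iPou4f3 and iP+A, and Esrrb, Sall4 and Nanog in iG+P and iGPA. The share of all genes in gene bodies was 31.6% in iPou4f3, 32.7% in iG+P, 22.8% in iGPA and 22% in iP+A.

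By list, 3 of 8 genes had an Atoh1 summit in iAtoh1, where 37.7% of all genes did. The number was 5 in iG+A (50.9% of all genes), 5 in iP+A (47.0%) and 6 in iGPA (59.1%). The 5 genes with a Pou4f3 summit stood beside 56.9% of all genes in iPou4f3, 59.5% in iG+P, 44.4% in iGPA and 41.7% in iP+A. With 8 genes, a share of 62.5% differed by less than 1 gene from that of all genes in iPou4f3 and iG+P, so these counts are close to the background there. The Atoh1 counts in iAtoh1 and iG+A also differed from the background by less than 1 gene. The Gfi1 list had a summit at 3 of 8 genes, Klf4, Tbx3 and Sall4, beside 14.7% of all genes. Of these Gfi1 peaks, only 1, at Sall4, had a −log10 p of at least 10.

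**Figure D1:**
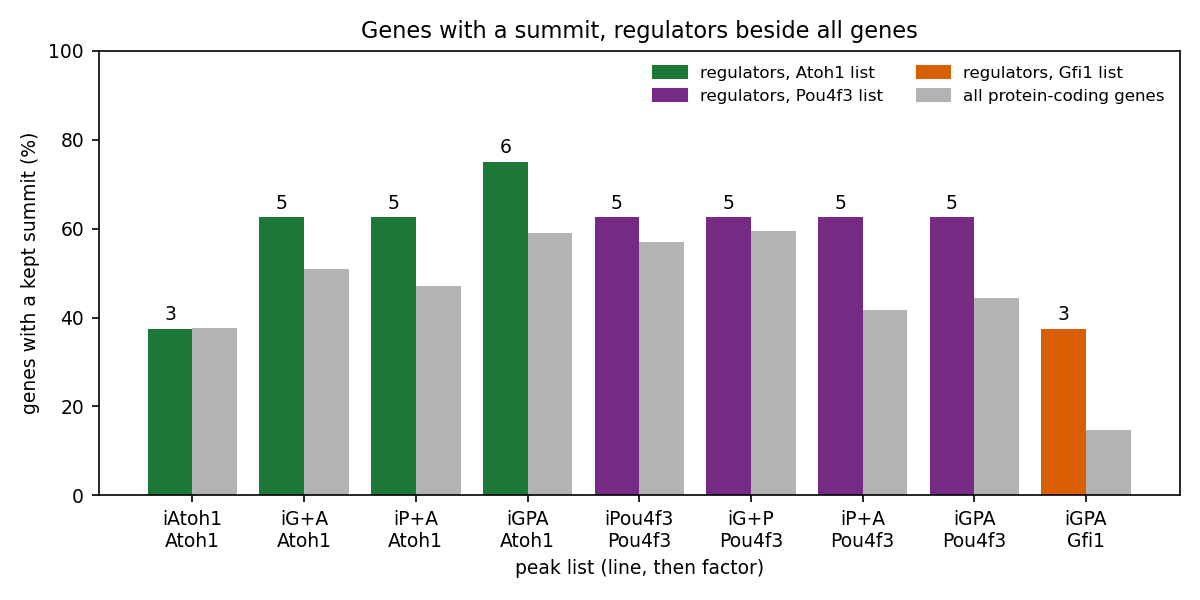
Percentage of genes with at least 1 kept summit in the body or within 20 kb, for the 8 regulators (coloured bars, with the number of genes above) and for all protein-coding genes (grey bars), in each of the 9 peak lists. The 5 regulators with a Pou4f3 peak were the same in the 4 Pou4f3 lists, and each list is a single value from merged libraries with no replicate error.

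Over all lists, Klf4 and Tbx3 had a summit in each of the 9 lists (2 of 8, against 4.7% of all genes). Esrrb and Sall4 had one in 8 lists, so 4 of 8 genes reached at least 8 lists, against 14.7% of all genes. Nanog had one in 6 lists and Pou5f1 in 2. Zfp42 and Prdm14 had none, as did 17.9% of all genes.

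Long genes offer a larger window. The window of Esrrb measured 200.5 kb and those of the other regulators 44.7 to 59.6 kb, against a median of 55.4 kb over all genes. Per Mb of window, the regulators held 12.6 Atoh1 summits in iAtoh1 (9.84 over all genes), 12.6 in iG+A (14.2), 23.3 in iGPA (18.2) and 18.0 in iP+A (12.1). For Pou4f3 the densities were 18.0 in iPou4f3 (14.1 over all genes), 28.7 in iG+P (18.7), 14.4 in iGPA (9.64) and 19.7 in iP+A (9.51). For Gfi1 the density was 8.98 against 2.16, from 5 summits, among them a summit 4 bp from the start of Atp9a, a neighbour of Sall4. The density was thus higher at the regulators in 8 of 9 lists and lower in the Atoh1 list of iG+A, and no test of these differences was made.

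The genes differed in which factor was found near them. Of the 16 summits at Nanog, 14 were Pou4f3 summits and 2 were Atoh1 summits. Sall4, with 20 summits, also leaned to Pou4f3, with 12 against 5 for Atoh1 and 3 for Gfi1. Some summits of each factor lay beyond its 3′ end, near the start of the neighbouring gene Atp9a, and belong to Sall4 only by the 20 kb rule. Esrrb leaned the other way, with 12 Atoh1 and 5 Pou4f3 summits. Klf4 (7 Atoh1, 6 Pou4f3 and 1 Gfi1) and Tbx3 (8, 8 and 1) were even between Atoh1 and Pou4f3. The 3 summits at Pou5f1 were Atoh1 summits, and in iP+A and iGPA only.

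**Figure D2:**
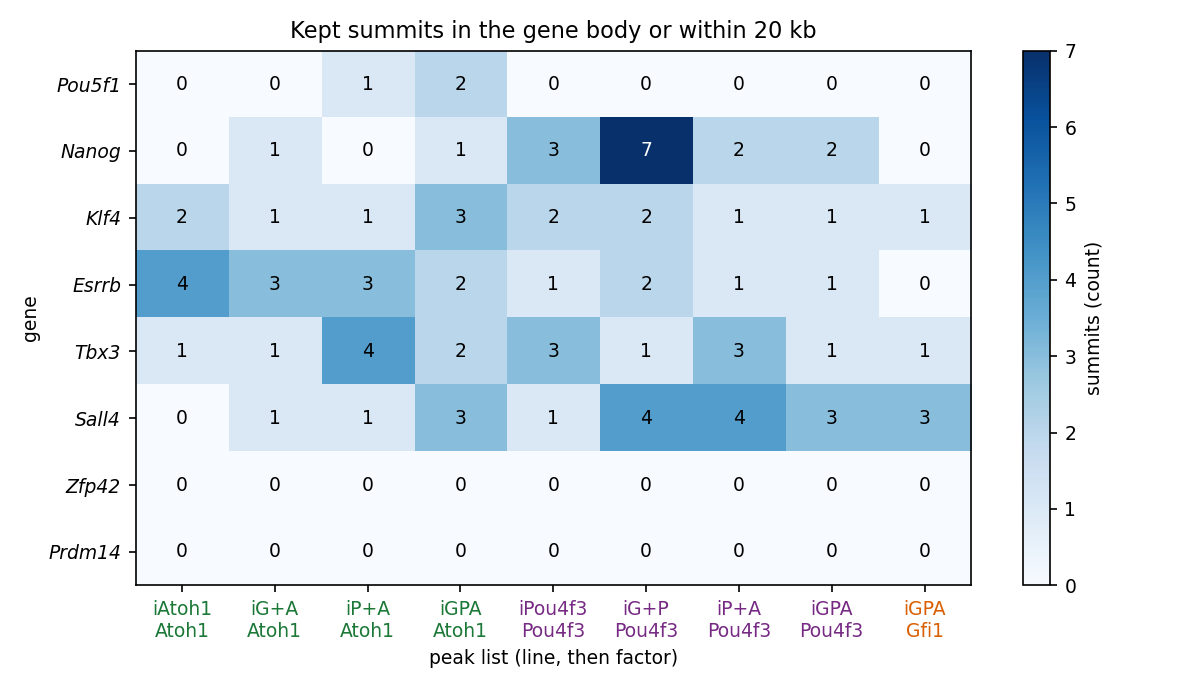
Number of kept summits in the body or within 20 kb of each of the 8 genes (rows) in each of the 9 peak lists (columns, label colours green for Atoh1, purple for Pou4f3 and orange for Gfi1). Nanog held 7 Pou4f3 summits in iG+P, the largest count of any gene and list shown, and Zfp42 and Prdm14 held 0 throughout.

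The lists differed in length and sensitivity, with 15568 to 26231 kept summits for Atoh1, 17082 to 32632 for Pou4f3 and 3012 for Gfi1. From the deposited fold and −log10 p of a peak, the number of fragments at its summit and the local background can be recovered. At the usual local background, the fewest fragments in a called peak were 18 to 21 for Atoh1, 17 to 20 for Pou4f3 and 14 for Gfi1, which corresponds to a fold of 2.37 to 2.48, 2.30 to 2.56 and 3.30. A list without a peak at a site therefore shows only that no enrichment above about that fold was called. Intervals given for a fold are 95% exact Poisson intervals on the recovered fragments with the background taken as fixed. They cover counting error only, compare merged libraries rather than conditions, and say nothing of the spread between replicates, which the merged lists do not hold.

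The strongest peaks at any of the 8 genes were Pou4f3 peaks at the promoter of Sall4. The site, at chr2:168592481-168592839 and named +0.8 kb from the outermost annotated start, lay 58 bp inside the nearest start of a protein-coding Sall4 transcript, in its untranslated first exon. Pou4f3 fold was 23.9 in iPou4f3 (265 fragments, interval 21.1 to 26.9), 15.4 in iG+P (173 fragments, 13.2 to 17.9), 18.3 in iP+A (161 fragments, 15.6 to 21.4) and 32.2 in iGPA (220 fragments, 28.1 to 36.7). These peaks ranked 34 of 22433, 74 of 32632, 12 of 17082 and 52 of 18751 in their lists by −log10 p. A peak in the top 1% of the list lay at 1 of 8 regulators in each Pou4f3 list, Sall4 each time, beside 1.02% of all genes in iPou4f3, 1.47% in iG+P, 0.751% in iGPA and 0.715% in iP+A. Sall4 was among the 87 genes (0.389%) with such a peak in all 4 Pou4f3 lists.

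At the same Sall4 site Atoh1 was found in iP+A, with a fold of 2.69 (24 fragments, 1.76 to 3.95), and in iGPA, with a fold of 4.18 (33 fragments, 2.92 to 5.83). No Atoh1 peak was kept or called there in iAtoh1 or iG+A, the lines without Pou4f3. The Gfi1 list had a peak with a fold of 4.26 (19 fragments, 2.65 to 6.54). The site was thus the only one of the 40 with all 3 factors. Within their own lists, the Atoh1 peaks were at percentiles 17.2 in iP+A and 67.6 in iGPA and the Gfi1 peak at 41.1. All were below the percentiles of the Pou4f3 peaks. Folds of different factors are not on the same scale, since the antibodies differed, and the paper describes the enrichment by the Gfi1 antibody as relatively low. The Pou4f3 summits lay 1 to 18 bp from the centre of the POU pattern AGTAATTAT, and the 2 Atoh1 summits lay 0 and 5 bp from the centre of the E-box CAGCTG, which was 28 to 59 bp from the Pou4f3 summits.

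In iGPA the Pou4f3 fold at Sall4 was higher than in the other 3 lines beyond counting error, with the background taken as fixed. The local background at the site was 5.87 fragments in iGPA, 7.83 in iP+A, 10.14 in iPou4f3 and 10.3 in iG+P. Against iPou4f3 the higher fold came with fewer fragments, 220 against 265, over this lower background. The iGPA Pou4f3 list also had a higher median fold over all its peaks, 4.08 against 2.96 to 3.33 in the other Pou4f3 lists, with a lower usual background of 5.87 fragments against 7.41 to 8.14. By percentile within the list, the 4 Sall4 peaks were at 99.7 to 99.9, with iGPA the lowest, and a difference between lines in binding and a difference in depth cannot be told apart.

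Further sites at Sall4 were weaker. A Pou4f3 site in an intron at +1.5 kb had folds of 4.08 in iGPA, 3.17 in iG+P and 2.49 in iP+A and no kept peak in iPou4f3. A Gfi1 peak in an intron at +4.2 kb had the highest fold of the 5 Gfi1 peaks, 4.84 (21 fragments, 3.08 to 7.28), and no other factor was found there. The sites at +25.2, +25.6 and +26.6 kb lay beyond the 3′ end of Sall4 and were nearest to the start of Atp9a, a neighbouring gene, at -374, -4 and 473 bp from it. At +26.6 kb, Pou4f3 folds were 3.35 in iGPA, 2.85 in iG+P and 2.49 in iP+A and the Atoh1 fold in iGPA was 3.82, and its 4 summits spread over more than 200 bp. At +25.2 kb, Pou4f3 folds were 3.07 in iG+P and 2.83 in iP+A and the Atoh1 fold in iGPA was 3.20. These 3 sites can be assigned to Sall4 only by the 20 kb rule.

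Esrrb, the orphan nuclear receptor that acts as a partner of Nanog and Pou5f1, had its main site in an intron 22.9 kb from the start. Pou4f3 fold there was 15.2 in iGPA (12.4 to 18.3), 8.43 in iG+P (6.66 to 10.5), 5.77 in iP+A (4.31 to 7.58) and 3.80 in iPou4f3 (2.62 to 5.35). The percentiles within the lists were 97.4, 97.5, 94.2 and 63.8 in that order. The local background was 5.87 fragments in iGPA and 7.41 to 8.14 in the other lists. Differences in binding and in depth cannot be told apart here. Atoh1 fold was 4.84 in iP+A (3.55 to 6.46) and 11.6 in iGPA (9.43 to 14.2), with percentiles of 87.2 and 97.3 in their lists. No Atoh1 peak was kept or called there in iAtoh1 or iG+A, so Atoh1 was found at this site in both lines with Pou4f3 and in neither line without it. The sequence held the E-box CAGCTG at 2 positions, 5 to 58 and 30 to 83 bp from the Atoh1 summits, and the POU pattern ATTAATGAT 43 to 72 bp from the Pou4f3 summits.

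The other Esrrb sites in more than 1 list were Atoh1 sites. The one at +148.7 kb had folds of 3.91 in iAtoh1, 4.27 in iG+A and 3.45 in iGPA, and the one at +122.5 kb had folds of 3.42 in iAtoh1, 2.80 in iG+A and 2.69 in iP+A. The upstream site at -13.1 kb had folds of 2.93 in iAtoh1 (1.90 to 4.34) and 5.16 in iP+A (3.82 to 6.83). The intervals of the last pair overlap, as do those of the lists at each of the other 2 sites.

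**Figure D3:**
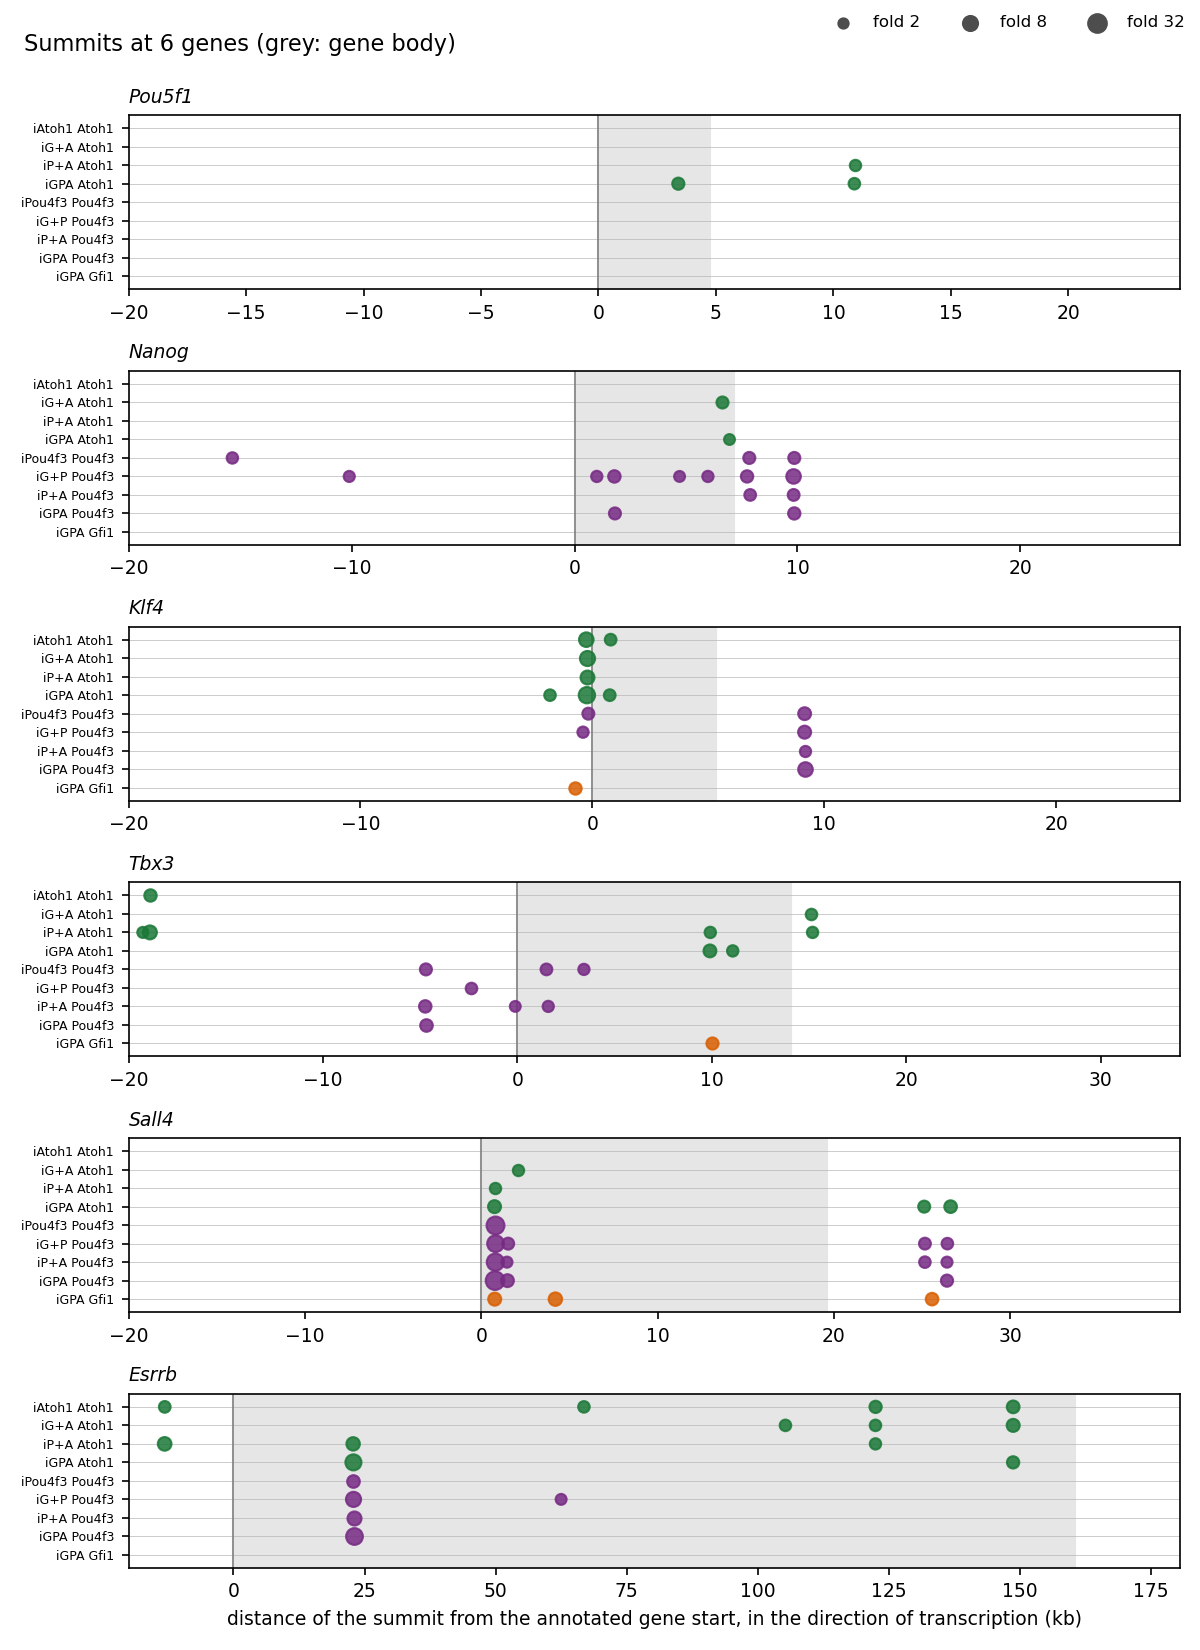
Distance of each kept summit from the annotated gene start (kb, in the direction of transcription) at the 6 genes with any, 1 row per peak list, with green points for Atoh1, purple for Pou4f3 and orange for Gfi1, point size rising with the log2 of fold, and the gene body in grey. Columns of points are sites shared between lists, such as +22.9 kb at Esrrb, where the 2 Atoh1 points came from iP+A and iGPA.

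Klf4, a zinc finger factor of the reprogramming set, carried 234 bp upstream of its start the Atoh1 peak with the highest −log10 p of the 8 genes in each of the 4 Atoh1 lists. Atoh1 fold was 6.96 in iAtoh1 (56 fragments, 5.29 to 9.01), 8.41 in iG+A (62 fragments, 6.48 to 10.7), 5.58 in iP+A (61 fragments, 4.29 to 7.14) and 13.2 in iGPA (106 fragments, 10.8 to 15.9). The iGPA value was above the other 3 beyond counting error, and the intervals of the other 3 overlapped. The percentiles were 96.7, 97.4, 93.7 and 98.2 in that order, and no Atoh1 peak at the 8 genes was in the top 1% of its list. Such a peak lay at 0.858% of all genes in iAtoh1, 1.17% in iG+A, 1.5% in iGPA and 0.947% in iP+A, and at 0.353% in all 4 lists. The 4 Atoh1 summits lay 10 to 15 bp from the centre of the single E-box CAGCTG in the sequence.

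Weaker Pou4f3 peaks joined this Klf4 site from 2 lists, with a fold of 3.17 in iPou4f3 and 2.63 in iG+P. Their summits were 73 and 155 bp from the E-box, against 10 to 15 bp for the Atoh1 summits, although the iPou4f3 peak as called extended over the Atoh1 summits. A Gfi1 peak with a fold of 3.52 lay at -0.7 kb, apart from the site. The stronger Pou4f3 binding at Klf4 was downstream of the gene at +9.2 kb, with folds of 6.99 in iGPA (5.18 to 9.25), 4.27 in iG+P (3.05 to 5.82), 4.04 in iPou4f3 (2.82 to 5.63) and 2.60 in iP+A (1.67 to 3.88). Neither pattern occurred in the 250 bases around that summit, and no Atoh1 peak was kept there.

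Nanog, the homeodomain factor of the core network, had 8 sites with a kept Pou4f3 and no kept Atoh1 summit and 1 site of the reverse kind, at +6.6 kb, where an iG+P Pou4f3 peak was called and left out by the authors. At +9.8 kb, Pou4f3 fold was 6.90 in iG+P (5.31 to 8.81), 3.50 in iGPA (2.27 to 5.17), 3.21 in iPou4f3 (2.14 to 4.65) and 3.05 in iP+A (2.05 to 4.39). Only the iG+P value stood above the others beyond counting error. The Pou4f3 summits lay 6 to 23 bp from the POU pattern ATAATAAAT and 5 to 37 bp from a further match, ATAAATAAT. Of the 226 words of 25 bases in this window, 32.3% occurred at a single place in the genome and the commonest occurred at 37960 places, so most of this sequence is repeated elsewhere.

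At +7.7 kb, Nanog had Pou4f3 folds of 3.21 in iPou4f3, 3.50 in iG+P and 2.94 in iP+A, in a window whose 25-base words all occurred at a single place. The 7 Pou4f3 summits of iG+P at Nanog included 4 sites found in that list alone, at folds of 2.41 to 2.63, close to the lowest fold called. The Atoh1 site, in an untranslated exon at +6.6 kb, had folds of 3.20 in iG+A and 2.34 in iGPA. The 2 peaks as called, at chr6:122664069-122664202 in iG+A and chr6:122664429-122664600 in iGPA, did not overlap. They were joined only by the 300 bp windows around their summits, and the iGPA peak was at percentile 0.913 of its list. In the window around the iG+A summit, 52.7% of the 25-base words occurred at a single place, the others at 2. Over all 40 sites, 28 windows consisted of such single words only and 7 had less than 90% of them. The authors kept only reads with a mapping quality of at least 40, and how many reads in repeated windows were lost was not tested.

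Tbx3, a T-box factor that supports self-renewal, had the most sites, 10, and no site in more than 3 lists. The Pou4f3 site at -4.7 kb, in an intron of the overlapping gene model Gm2301, had folds of 3.21 in iPou4f3, 3.62 in iP+A and 3.79 in iGPA, with no peak kept in iG+P. The coding-exon site at +9.9 kb had Atoh1 folds of 2.69 in iP+A and 4.06 in iGPA and a Gfi1 fold of 3.30. The strongest peak of the gene by rank in its list was an Atoh1 peak at -18.9 kb in iP+A, with a fold of 5.70 (4.29 to 7.44), where iAtoh1 had 3.54 (2.40 to 5.07). None of the 10 Tbx3 sites held kept summits of both Atoh1 and Pou4f3. At -0.1 kb, where the iP+A Pou4f3 peak was kept, an iG+A Atoh1 peak and an iPou4f3 Pou4f3 peak were called and left out by the authors, and with all called peaks the sites of Atoh1 and Pou4f3 at the 8 genes numbered 7, against 5 as kept.

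Within 20 kb, Pou5f1 had the fewest peaks of the 6 genes with any, and they were weak. A site at +10.9 kb had Atoh1 folds of 2.69 in iP+A (1.76 to 3.95) and 2.83 in iGPA (1.82 to 4.22), and its summits were nearest to the starts of neighbouring genes, at -129 bp from Cchcr1 in iP+A and at -104 bp from Tcf19 in iGPA. A site in a coding exon of Pou5f1 at +3.4 kb had an Atoh1 fold of 3.32 (2.21 to 4.81) in iGPA. No Pou4f3 or Gfi1 peak was kept or called in the window of Pou5f1. Zfp42 and Prdm14 had no peak of any list in their windows, among kept peaks or among all called ones. Within 100 kb, Zfp42 had 11 summits in 5 lists and Prdm14 had 8 summits in 3 lists. At that distance Pou5f1 had 146 summits in 8 lists, the most of the 8 genes, whose counts add up to 308. With a distance of 50 kb, all 8 genes had a Pou4f3 summit, as did 85.0% of all genes.

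Across the 8 genes the typical peak was weak. The median percentile of the 87 peaks in their own lists was 38.6, where the middle of a list is 50, and 54 of the 87 peaks were in the lower part. The 14 peaks above the 90th percentile were at 5 genes, at Sall4 +0.8 kb, Esrrb +22.9 kb, Klf4 -0.2 kb, Nanog +9.8 kb and Tbx3 -18.9 kb. By list, the median percentile ran from 14.1 for Atoh1 in iG+A to 59.1 for Atoh1 in iAtoh1, and only the latter was above 50. The median for Gfi1 was 15.0 over 5 peaks.

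**Figure D4:**
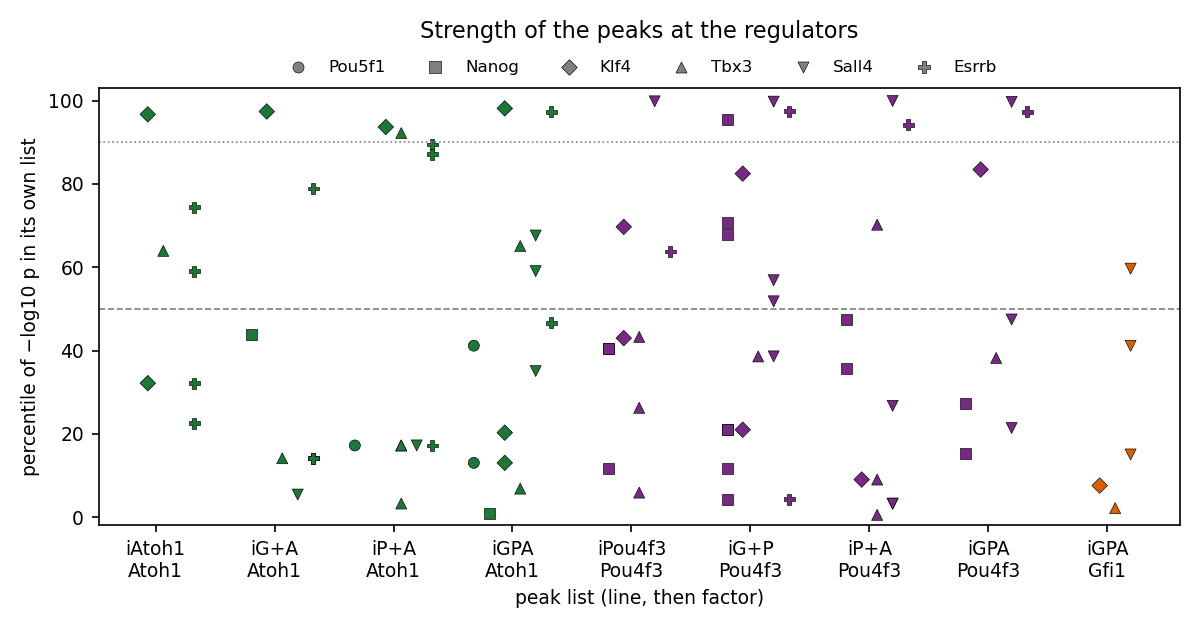
Percentile of −log10 p within its own list for each of the 87 peaks at the regulators (symbol for the gene, colour for the factor: green Atoh1, purple Pou4f3, orange Gfi1), with dashed and dotted lines at 50 and 90. Most peaks lie in the lower part of their list, and the points near 100 in the Pou4f3 lists are Sall4.

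The sharing of sites between lines was compared next. Of the 40 sites, 19 (47.5%) were in 1 list only, 13 (32.5%) in at least 3 and 3 (7.5%) in at least 6. Over the 78408 sites of the genome the shares were 46.9%, 33.4% and 3.22%. The sites in at least 6 lists were those at Sall4 +0.8 kb with 7 lists, Esrrb +22.9 kb with 6 and Klf4 -0.2 kb with 6. All 4 Pou4f3 lists held 4 of the 21 Pou4f3 sites (19.0%, against 14.8% over the genome), 1 each at Sall4, Esrrb, Klf4 and Nanog. All 4 Atoh1 lists held 1 of 21 Atoh1 sites (4.76%, against 10.7%), at Klf4.

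**Figure D5:**
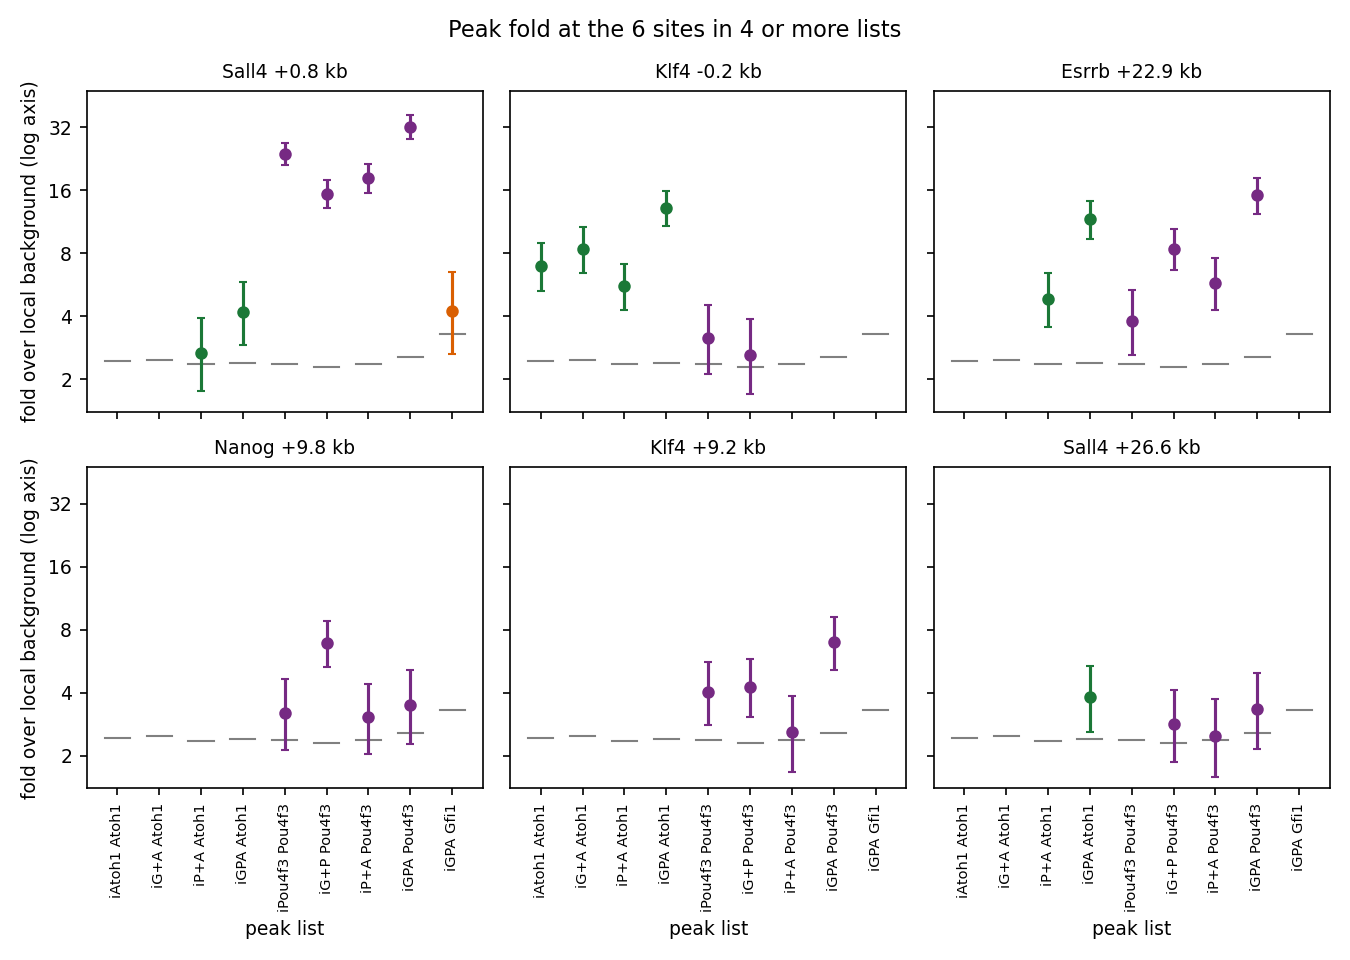
Fold over local background (log axis) at the 6 sites found in 4 or more lists, with points for kept peaks (green Atoh1, purple Pou4f3, orange Gfi1), bars for 95% exact Poisson intervals that cover counting error only, and grey ticks for the lowest fold called at the usual background of each list. At Sall4 +0.8 kb and Esrrb +22.9 kb, Atoh1 points are present for iP+A and iGPA and missing for iAtoh1 and iG+A, and at Klf4 -0.2 kb they are present for all 4 lines.

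Whether Atoh1 sites depended on the presence of Pou4f3 in the line was described by class. Of the 21 Atoh1 sites at the regulators, 10 (47.6%) were only in lines with Pou4f3, 3 (14.3%) only in lines without it and 8 (38.1%) in both kinds of line. Over all Atoh1 sites of the genome the shares were 39.6%, 25.4% and 35%. The Atoh1 lists of lines with Pou4f3 include the longest, that of iGPA, so list length and the added factor cannot be told apart. When Pou4f3 was added to Atoh1 (iAtoh1 to iP+A), 4 of 7 sites (57.1%) were shared, which were 40% of the 10 sites of iP+A, against 51.4% and 41.9% over the genome. When Gfi1 was added to Atoh1 (iAtoh1 to iG+A), 3 of 7 sites were shared (42.9% of each list, against 53.7% and 40.7%). With Gfi1 present, adding Pou4f3 (iG+A to iGPA) left 3 of 7 shared, 42.9% and 23.1%, against 54.4% and 42.3%. Nanog +6.6 kb, counted as shared here and as in both kinds of line above, joined peaks that did not overlap. With Pou4f3 present, adding Gfi1 (iP+A to iGPA) left 5 shared, 50% of the 10 and 38.5% of the 13, against 59.1% and 42.7%.

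For Pou4f3, adding Atoh1 (iPou4f3 to iP+A) left 7 sites shared, 70.0% of the 10 in iPou4f3 and 63.6% of the 11 in iP+A, against 44.6% and 59.0% over the genome. Adding Gfi1 (iPou4f3 to iG+P) left 6 shared, 60.0% and 37.5%, against 63.1% and 44.1%. Of the 8 Pou4f3 sites of iGPA, 7 (87.5%) were also in iP+A and 7 in iG+P, against 49.2% and 71.9% over the genome. The Pou4f3 site found in iGPA and not in iP+A was at Nanog +1.8 kb, and the one not in iG+P was at Tbx3 -4.7 kb.

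Within a line, Atoh1 and Pou4f3 shared few sites. In iP+A, 2 sites were shared, 20.0% of the Atoh1 and 18.2% of the Pou4f3 sites at the regulators, against 24.2% and 26.6% over the genome. In iGPA, 3 were shared, 23.1% and 37.5%, against 16% and 21.9%. They were Sall4 +0.8 kb and Esrrb +22.9 kb in both lines and Sall4 +26.6 kb in iGPA. Of the 5 Gfi1 sites, 2 (40%) were shared with Atoh1 in iGPA, at Tbx3 +9.9 kb and Sall4 +0.8 kb, and 1 (20.0%) with Pou4f3, against 45.2% and 25% over the genome.

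By position, 18 of the 40 sites were in introns, 11 were intergenic, 6 were in coding exons, 3 in untranslated exons and 2 in noncoding exons. The nearest start of a protein-coding transcript belonged to the gene itself at 36 sites, the exceptions being Pou5f1 +10.9 kb and the 3 sites beyond the end of Sall4. Sites within 1 kb of the outermost annotated start numbered 6, at Nanog +1.0 kb, Klf4 +0.8, -0.2 and -0.7 kb, Tbx3 -0.1 kb and Sall4 +0.8 kb.

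The patterns were counted in 250 bases around the strongest summit of each site, whichever factor it belonged to. At Sall4 +26.6 kb this was the Atoh1 summit, and the Pou4f3 summits lay outside the 250 bases. At Klf4 -0.2 kb it was also an Atoh1 summit, and the iG+P Pou4f3 summit lay outside. CAGATG or CAGCTG, on either strand, occurred at 17 of the 21 Atoh1 sites of the regulators, against 61.1% of all Atoh1 sites and 27.5% of windows of the same length 1000 bp to each side. The POU pattern, ATAATTAAT with at most 1 mismatch on either strand, occurred at 5 of the 21 Pou4f3 sites, against 37.8% of all Pou4f3 sites and 10.3% of the side windows. Those 5 were Sall4 +0.8 kb, Sall4 +25.2 kb, Esrrb +22.9 kb, Nanog +1.8 kb and Nanog +9.8 kb. In 500 bp windows the POU pattern was at 10 of the 21, against 43.7% of all Pou4f3 sites. In 100 bp windows it was at 4, against 28.4%. The E-box was also at 11 of the 21 Pou4f3 sites (27.8% over the genome). At the 16 sites with Pou4f3 and no Atoh1 it was at 6 (21.7%), and in 100 bp windows at 1 (8.8%). Of the 5 sites with Atoh1 and Pou4f3 in any line, 5 held the E-box (41.8% over the genome) and 3 the POU pattern (16.5%), and in 100 bp windows the counts were 3 (28.5%) and 2 (10.9%). At Klf4 -0.2 kb and Sall4 +25.2 kb, included here, the factors came from different lines.

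The Gfi1 pattern AATCACAGC or AATCACTGC was in 0 of the 5 Gfi1 windows, against 6.39% of all Gfi1 sites. ATGCAAAT, the octamer that Pou5f1 and other POU factors bind, was in 0 of the 40 windows, against 1.83% of all sites. At these shares few matches would be seen in windows as few as these, and a missing match says only that these letters are not in the window.

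Other pluripotency genes were set beside the 8 regulators. Of 24 such genes, 20 had a Pou4f3 summit in at least 1 list (71.6% of all genes) and 12 had an Atoh1 summit (69.8%), so more of them were near Pou4f3 than near Atoh1 sites. At least 6 lists had a summit at 7 of them (36.6% of all genes), namely Mycn, a Myc family factor, in 9 lists, Stat3, the LIF effector, and the nuclear receptor gene Nr5a2 in 8, the demethylase gene Tet1 in 7, and Tet2, the LIF receptor gene Lifr and the RNA-binding Lin28a in 6. The windows of Nr5a2, Tet1, Tet2, Lifr and Stat3 were long, at 156.8, 134.5, 120.7, 107.9 and 94.44 kb. Those of Lin28a and Mycn measured 55.51 and 45.82 kb, and the count was not adjusted for window length. Of 11 genes of the primed state, the later stage of pluripotency, 9 had a Pou4f3 and 10 an Atoh1 summit. Those in at least 6 lists were Fgf5, Pou3f1, Dnmt3a and Lef1 with 8, and Dnmt3b and Tcf7l1 with 6, so 6 of 11 against 36.6%. The windows of Dnmt3a, Lef1 and Tcf7l1 measured 148.4, 153.9 and 202.9 kb, against a median of 55.4 kb over all genes. Those of Dnmt3b, Fgf5 and Pou3f1 measured 78.28, 62.85 and 43.0 kb, and these counts were not adjusted for window length. Of 14 proneural and other neural bHLH genes, the family to which Atoh1 belongs, 9 had a Pou4f3 and 8 an Atoh1 summit, and Neurog2, Neurod4 and Nhlh1 were in at least 6 lists (3 of 14).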

How the data were processed

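ChIP-seq peaks of Atoh1, Pou4f3 and Gfi1 were taken from 9 pairs of deposited files, made from 17 ChIP and 12 input libraries grouped by their titles. The authors used Trimmomatic to trim reads, aligned them to mm9 with Bowtie 2, removed duplicates, blacklisted reads and reads with a mapping quality under 40, and called peaks with MACS 2 on merged replicates against merged inputs. The authors' peak files give for each peak a rounded score, a fold ratio over local background and a −log10 p. The deposited summit lists hold fewer peaks (14.1% to 35.5% of called peaks were left out) by a filter that is not stated, and a signal score whose scale is not given in the sources used here and which was not used. Because a list is 1 value per group, no test was made.

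Summits were assigned to genes of GENCODE vM1 with Python 3.11.15, pandas 2.3.3 and NumPy 2.4.6. The 8 genes, the further gene lists and the comparisons were chosen with earlier results of these data known. All 8 genes were named, with every site in at least 3 lists and the strongest peak by percentile described, and genes of the further lists were named with a summit in at least 6 lists. Sites joined 300 bp windows around kept summits that shared at least 1 bp. Fragments and background were recovered from fold and −log10 p to within 0.001, with SciPy 1.17.1, which succeeded for 99.4% to 100.0% of 3000 peaks per list. The counting, joining and recovery steps were tested on simulated data. Other distances, assignment to the nearest transcription start, called peaks, stricter and equal-length lists, other joining windows and pattern windows were tried. Figures were drawn with Matplotlib 3.10.9.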

Additional observations from a re-analysis of the deposited data

How the results depend on the processing

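No paired analysis was possible because peaks were called on merged replicates and no value carries a replicate number, and for the same reason no replicate could be left out in turn. Summits at the 8 genes (37 for Atoh1, 45 for Pou4f3 and 5 for Gfi1) numbered 21, 20 and 3 in gene bodies alone, 59 and 72 (Atoh1 and Pou4f3) within 50 kb, 159 and 144 within 100 kb (where 146 of 308 summits over all lists were at Pou5f1), 13, 15 and 1 when −log10 p was 10 or more, and 23 and 27 at equal list length, a setting that gave no Gfi1 value. Genes with a Pou4f3 summit rose from 5 to 8 at 50 kb and at 100 kb, and to 7 by nearest transcription start. Genes with a Gfi1 summit fell from 3 to 1 under that −log10 p limit. The share of all genes with an Atoh1, Pou4f3 or Gfi1 summit was 59.8%, 62.8% and 12.0% over all annotated genes, 41.6%, 44.0% and 5.88% in gene bodies, 55.4%, 55.8% and 9.64% within 5 kb, 81.7%, 85.0% and 23.2% within 50 kb and 89.6%, 92.3% and 34.2% within 100 kb. With that limit there were 14 sites, 5 of them in at least 2 lists and 2 with Atoh1 and Pou4f3. In 500 bp windows the POU pattern was at 10 of 21 Pou4f3 sites, against 43.7% of all Pou4f3 sites. These counts move by the construction of each setting, and the peaks near the lowest fold called limit what weak sites can show.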
